A study of Mus musculus with 16 samples.

Results

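The response of mouse footpad epidermis to the protease papain was measured on a purified diet enriched in indole-3-carbinol (I3C), in 8 of the 16 libraries of the series: 4 libraries from mice injected with papain (T106, T113, T114 and T115) and 4 from mice injected with vehicle (T108, T109, T110 and T111). The members were all 22155 genes, of 50600 in the deposited table, with at least 10 counts summed over the 16 libraries. The mice were C57/B6J and received the synthetic diet with 200 ppm I3C from 5 wk of age, for 3 wk. The footpad then received 50 μl of phosphate buffered saline (PBS, the vehicle) with or without 50 μg of papain, and epidermal cells were taken 6 hr later. Both I3C groups carried the diet, the injection and the cell preparation, and they differed by papain. The other 8 libraries came from mice on the same synthetic diet without I3C (the AhR-poor diet), injected in the same ways, 4 with vehicle (T100, T101, T102 and T103) and 4 with papain (T104, T105, T107 and T112). All 16 entered the fit, so that leaving out any of them could move a test. Each library was given as 1 biological replicate. The footpad epidermis was freed with dispase, dispersed by enzyme at body temperature and cleared of dead cells, so the libraries hold a cell suspension of mostly keratinocytes and not intact skin. Mice on 1 diet were housed together, so diet and cage cannot be told apart between diets, whereas papain and vehicle were compared within a diet. Libraries were sequenced in 3 units that the labels do not assign to samples, and a unit could not be entered in any fit.

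Papain is a cysteine protease of papaya that cleaves junction proteins of the epidermis and is used as a model allergen, since inhaled or injected papain leads to a type 2 immune response. Keratinocytes answer injury and proteases with alarmins, growth factors, chemokines and antimicrobial proteins, switch from resting to stress keratins, and lay down small cornified envelope proteins. I3C is a compound of cruciferous plants that the stomach turns into ligands of the aryl hydrocarbon receptor (AhR), a transcription factor of barrier tissues whose best known targets are enzymes of xenobiotic metabolism.

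The 8 libraries held 32213808 to 42848017 counts on genes, and levels are given as CPM, a gene's counts per 1000000 counts of its library after TMM scaling. CPM are not corrected for gene length, so they are compared between libraries and not between genes. At these depths 3 counts, the floor used here, amount to 0.0731 to 0.0962 CPM. Libraries of a group differed from each other by more than sampling noise (smallest chi-square divided by its degrees of freedom 9.43), so all 8 were counted. The first principal component of log2(CPM + 1) took 72.6% of the variance and separated papain from vehicle. T106 lay nearest to vehicle among the papain libraries, at 23.5 against 37.1 to 40.9 for the others, and T108 and T111 lay at opposite ends of the vehicle group on the second component (-24.0 and 23.3). Counts of called genes are therefore also given without T106 and without T108. Krt5 and Krt10, the keratins that define basal and suprabasal keratinocytes, were high in all 8 libraries (8491 to 14429 CPM and 18026 to 26878 CPM).

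Papain on the I3C diet was followed by rises of the stress keratins (4 of 4 tested), of 7 of 10 Stefin A genes, 19 of 33 interferon-stimulated genes, 15 of 40 cornified envelope genes, 8 of 23 S100 and antimicrobial genes, 7 of 26 serpins and 4 of 12 EGFR ligands and receptors. Falls were those of the basal keratin gene Krt15, the anchoring protein gene Dst, the myeloid growth factor gene Il34, and a minority of the Wnt (6 of 24), TGF-β (4 of 23), clock (3 of 19) and cell cycle (5 of 34) lists. A gene was called by edgeR's quasi-likelihood test when its log2 fold change lay beyond 1 in either direction and its p, adjusted by Benjamini-Hochberg, was under 0.01, and by this rule 818 genes rose and 1171 fell. These were 3.69% and 5.29% of the 22155 genes tested, and they are the background against which the counts of each gene group should be read. Of the genes that rose, 796 had all 4 papain libraries above all 4 vehicle libraries, and of those that fell 1130 had all 4 below. Over all genes tested the corresponding shares were 16.2% above and 17.3% below. In the fit, 52 rises and 4 falls had an absolute log2 fold change above 5. In 31 of these rises and in all 4 falls (Dpp10, Nat8f7, Gm11527 and Gm26717, named after their values were seen) every library of the lower group held at most 3 counts, where the fitted fold depends on the prior count. Apart from those, 21 rises and 0 falls lay beyond 5. The median absolute log2 fold change of called genes was 1.73 for rises and 1.46 for falls, or 1.63 and 1.39 with genes at the floor set to their bound. The median over all genes tested was -0.04. T106 had the lowest level of the 4 papain libraries in 481 of the 818 rises and the highest in 713 of the 1171 falls. Without T106 the counts were 851 and 1320, and without T108 they were 776 and 1122.

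**Figure D1:**
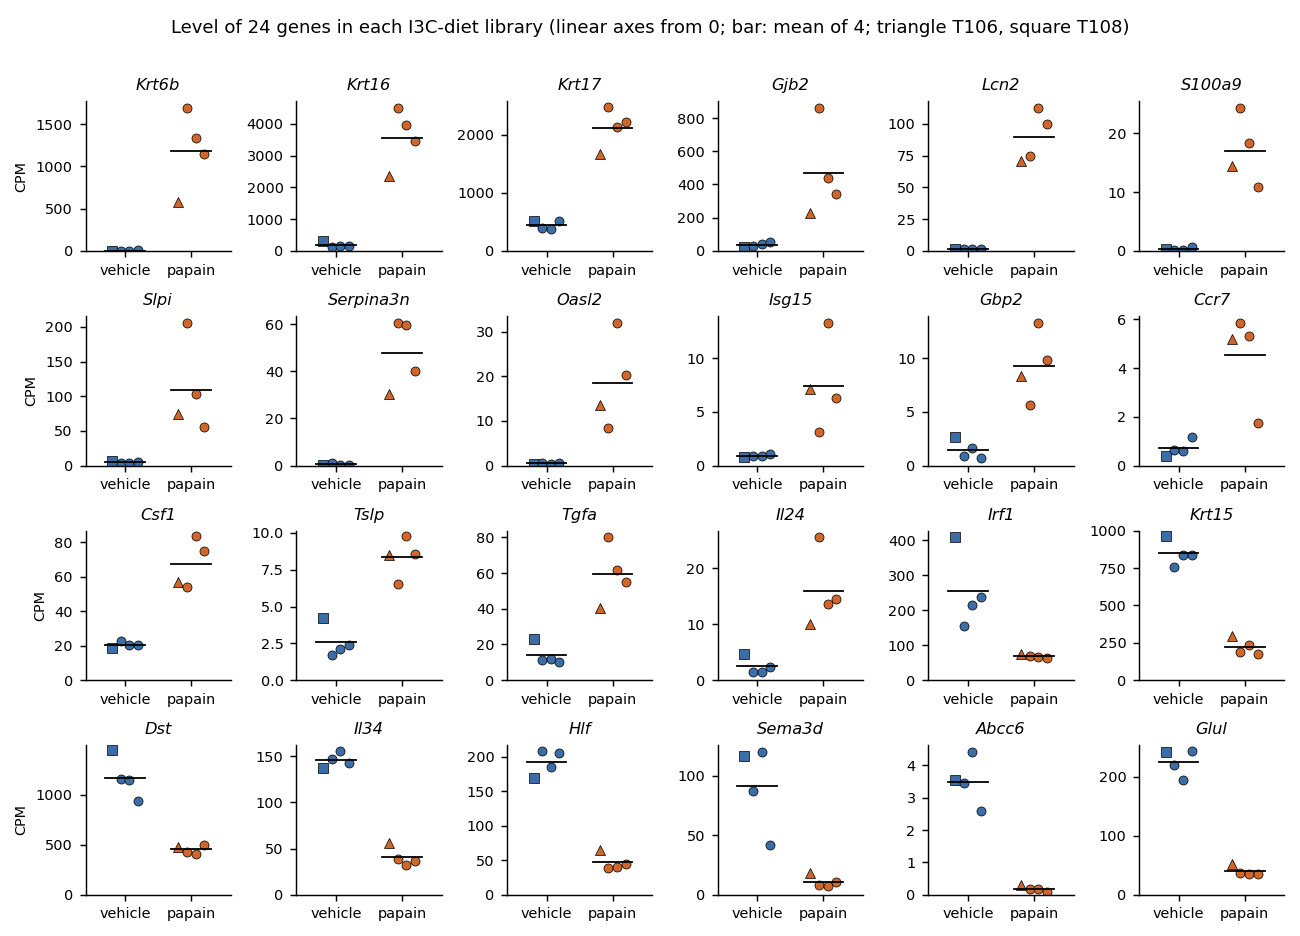
Levels of 24 genes in CPM (linear axes from 0) in the 4 vehicle (blue) and 4 papain (orange) libraries of the I3C diet. Each point is a library, the bar is the mean of 4, the triangle is T106 and the square T108. In every panel all papain libraries lie on one side of all vehicle libraries.

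Gene groups were compared with the lists of genes named for the tissue and the treatment, 47 in all, each described by its count of called members and its median. The lists with the highest medians were the stress keratins (4.47), the Stefin A cluster (2.78) and the interferon-stimulated genes (2.29). Those with the lowest were the circadian clock (-0.71), the immediate early factors (-0.68) and the Wnt pathway (-0.68).

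**Figure D2:**
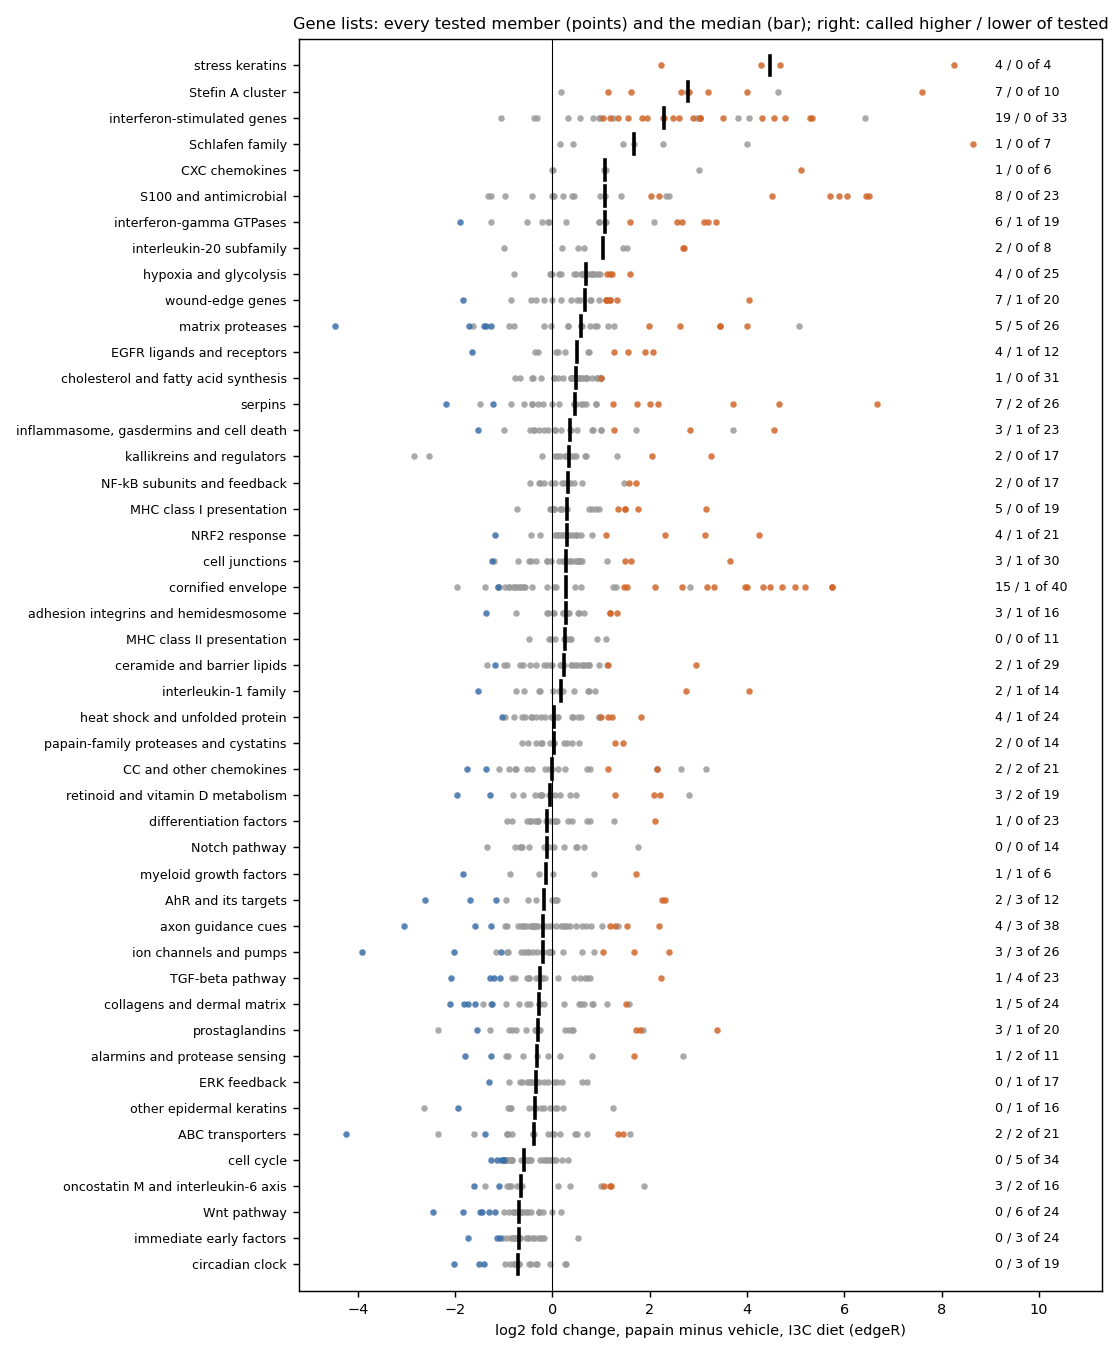
Log2 fold change of papain over vehicle on the I3C diet (horizontal axis) for every tested member of the 47 gene lists, one list per line, ordered by the median (black bar). Orange points passed as higher, blue as lower and grey did not pass. The printed counts are members called higher and lower of those tested, from 4 and 0 of 4 stress keratins at the top to 0 and 3 of 19 clock genes at the bottom.

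The stress keratins, which replace resting keratins in wounded and activated epidermis, rose in 4 of 4 genes. Krt6b stood at 1.49, 1.30, 3.46 and 9.54 CPM with vehicle and 574, 1684, 1338 and 1150.5 CPM with papain (log2 fold change 8.25, SE 0.86, edgeR adjusted p = 6.12e-06). Krt16 stood at 306, 121, 141 and 168 CPM with vehicle and 2354, 4487, 3966 and 3449.7 CPM with papain (log2 fold change 4.28, SE 0.31, edgeR adjusted p = 1.19e-07). Both groups were far apart for each gene, with T106 the lowest papain library and still above every vehicle library. Here and below, SE is the absolute log2 fold change divided by the square root of the test's F. It is therefore derived from the test and is not a separate measure of precision. Krt6a rose from 116 ± 36.4 to 2958 ± 1282 CPM (mean ± SD, n = 4 per group, as for all such pairs below; log2 fold change 4.67, SE 0.42, edgeR adjusted p = 1.04e-06). Krt17 rose from 453 ± 71.4 to 2122 ± 338 CPM (log2 fold change 2.23, SE 0.18, edgeR adjusted p = 1.02e-07). Krt6a and Krt6b are near-identical copies, so the split of reads between them is uncertain. The rise of Krt6b varied with 1 vehicle library, T111, which held most of its vehicle counts. Without T111 Krt6b had a log2 fold change of 9.15.

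The keratins of resting epidermis did not follow. Of 16 tested 1 fell, the other 15 did not pass, and the median was -0.35. Krt15, a keratin of basal and stem-like keratinocytes, stood at 962, 756, 838 and 838 CPM with vehicle and 293, 189, 232 and 173 CPM with papain (log2 fold change -1.93, SE 0.17, edgeR adjusted p = 2.37e-07), with no overlap between the groups. Krt5, Krt14 and Krt10 did not reach a log2 fold change of 1 in either direction. Krt5 had 12229.7 ± 1635 CPM with vehicle and 8738 ± 269 CPM with papain and Krt14 12502 ± 1622 CPM with vehicle and 9904 ± 536 CPM with papain, both below in all 4 papain libraries, and Krt10 had 23212 ± 3622 CPM with vehicle and 22460.4 ± 3209 CPM with papain, with the groups overlapping.

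Cornified envelope genes encode the cross-linked shell of the outermost keratinocytes, and 15 rose and 1 fell of 40 tested, with a median log2 fold change of 0.27. The members that rose were 10 Sprr genes, 4 Lce3 genes and the cross-linking enzyme gene Tgm1, and the fall was of its relative Tgm3. Sprr2d rose from 0.428 ± 0.361 to 13.5 ± 12.5 CPM (log2 fold change 4.99, SE 0.75, edgeR adjusted p = 1.26e-04), Sprr2h rose from 1.44 ± 0.319 to 32.0 ± 19.5 CPM and Sprr1a rose from 155 ± 30.2 to 667 ± 183 CPM. Sprr1b rose from 182 ± 37.6 to 525 ± 166 CPM. Sprr2i rose from 0.0650 ± 0.0799 to 3.58 ± 1.62 CPM (vehicle counts of 0, 1, 2 and 6, a papain mean 42.8 times the floor of 3 counts per library, edgeR adjusted p = 4.75e-05). The Lce3 genes began from near 0. Lce3c rose from 0.283 ± 0.0745 to 4.59 ± 2.34 CPM (log2 fold change 3.99, SE 0.37, edgeR adjusted p = 1.11e-07), Lce3d was at least 22.8-fold and Lce3f at least 11.2-fold higher against the floor of 3 counts per library (16.1 without T113 and 7.19 without T113), and Lce3e at least 4.19-fold (3.16 without T113). The envelope genes of the granular layer did not pass: Lor had 66.6 ± 30.2 CPM with vehicle and 33.9 ± 24.2 CPM with papain, Flg 19.7 ± 9.72 CPM with vehicle and 7.51 ± 5.91 CPM with papain and Ivl 19.9 ± 5.05 CPM with vehicle and 10.7 ± 5.54 CPM with papain, with overlapping groups for all 3. Without T111 Sprr2d had a log2 fold change of 5.67 and without T113 Sprr2d had a log2 fold change of 4.16. The Sprr2 and Lce3 genes are families of near copies, and their counts may be shared. On chromosome 3, 17 of 22 genes tested between 92014583 and 92485895 (mm10) rose, which include Pglyrp3, a gene of the peptidoglycan recognition proteins, and the Sprr genes. Between 92944486 and 92993426 on the same chromosome, 4 of 4 rose, all of them Lce3 genes.

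Genes of cell junctions changed in few members: 3 rose and 1 fell of 30 tested, with a median log2 fold change of 0.28. The gap junction gene Gjb2, which encodes connexin 26, stood at 24.1, 31.5, 42.1 and 52.6 CPM with vehicle and 229.9, 859, 439 and 345 CPM with papain (log2 fold change 3.64, SE 0.43, edgeR adjusted p = 1.60e-05), with every papain library above every vehicle library. The desmosomal cadherin genes Dsc2 and Dsg3 rose from 9.83 ± 1.86 to 30.0 ± 9.74 CPM and from 192 ± 81.5 to 539.6 ± 119.7 CPM. Tjp3, which encodes a scaffold of tight junctions, fell from 115.1 ± 20.5 to 48.8 ± 13.9 CPM. Gjb1, which encodes connexin 32 and is not in the list, rose from 0.0404 ± 0.0649 to 3.59 ± 0.965 CPM (vehicle counts of 0, 1, 5 and 0, a papain mean 42.9 times the floor of 3 counts per library, edgeR adjusted p = 1.20e-08). Among the integrins and the hemidesmosome, which anchor basal keratinocytes, 3 rose and 1 fell of 16 tested, with a median log2 fold change of 0.27. Dst, which encodes the hemidesmosomal plakin BP230 among other isoforms, stood at 1441, 1156, 1142 and 932 CPM with vehicle and 480.3, 429.7, 411 and 498 CPM with papain (log2 fold change -1.36, SE 0.12, edgeR adjusted p = 6.85e-08) and the groups did not overlap. The migration-associated genes Itga5 (14.9 ± 5.18 to 37.7 ± 13.6 CPM) and Itgb6 (8.83 ± 4.17 to 19.9 ± 6.99 CPM) also rose. Itga5 did not pass without T111 (log2 fold change 1.24, adjusted p = 0.01002). Itgb6 did not pass when any of T109, T110, T111, T113, T114, T115, T100, T102, T103, T107 and T112 was left out (log2 fold change 0.99 to 1.26, adjusted p up to 0.0303). Among genes active at wound edges, 7 rose and 1 fell of 20 tested, with a median log2 fold change of 0.68. Cd44, a hyaluronan receptor, rose from 486 ± 48.5 to 1051 ± 177 CPM (log2 fold change 1.11, SE 0.10, edgeR adjusted p = 1.31e-07), and the activin genes Inhba and Inhbb rose from 0.141 ± 0.0802 to 2.35 ± 1.73 CPM and from 11.9 ± 1.36 to 27.2 ± 1.79 CPM. Pthlh, encoding parathyroid hormone-related protein, fell from 8.61 ± 5.45 to 2.40 ± 0.562 CPM, and the angiogenic factor gene Vegfa rose from 58.7 ± 13.8 to 126 ± 26.4 CPM. Myh9, the heavy chain of non-muscle myosin, rose from 522 ± 89.7 to 1109 ± 158 CPM, 1 of the 6 largest gains in CPM among called genes. Without T113 Inhba had a log2 fold change of 3.38. Vegfa did not pass without T113 (log2 fold change 0.98, adjusted p = 2.14e-04). Myh9 did not pass without T111 (log2 fold change 0.995, adjusted p = 9.29e-07).

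Of the S100 and antimicrobial genes, 8 rose of 23 tested, with a median log2 fold change of 1.08. S100a8, a subunit of calprotectin with S100a9, stood at 0.0861, 0.153, 0.218 and 0.3002 CPM with vehicle and 9.65, 30.3, 18.0 and 8.43 CPM with papain (log2 fold change 6.43, SE 0.86, edgeR adjusted p = 5.24e-05). S100a9 rose from 0.330 ± 0.244 to 16.9 ± 5.75 CPM (log2 fold change 5.70, SE 0.74, edgeR adjusted p = 4.12e-05). Lcn2, encoding the iron-sequestering lipocalin-2, stood at 1.32, 1.84, 1.496 and 1.38 CPM with vehicle and 71.2, 75.1, 112.3 and 100.04 CPM with papain (log2 fold change 5.88, SE 0.29, edgeR adjusted p = 2.89e-09). These genes were low in every vehicle library and high in every papain library. The defensin genes Defb14 (0.105 ± 0.0280 to 7.13 ± 4.24 CPM) and Defb1 (14.8 ± 1.46 to 67.8 ± 15.5 CPM) rose, and Defb4, with 0 counts in all 4 vehicle libraries, was at least 3.68-fold higher against the floor (2.60 without T113). Slpi, a secreted inhibitor of leukocyte proteases, rose from 4.80 ± 1.43 to 109.7 ± 67.1 CPM (log2 fold change 4.52, SE 0.45, edgeR adjusted p = 3.67e-06). Without T111 S100a9 had a log2 fold change of 6.32. Because S100a8, S100a9 and Lcn2 are also made by neutrophils, the markers of neutrophils are given beside them: Ly6g was at 0 in all 8 libraries, the granule genes Camp, Ngp and Ltf were at or near 0, and 4 of 15 neutrophil markers rose, namely S100a8, S100a9, Cxcr2 and Mmp9, while Il1r2 fell. By DESeq2 9 of the 15 rose and 1 fell. The mean log2(CPM + 1) of the list lay 0.71 to 1.31 above the vehicle mean in the 4 papain libraries. Without Il1r2, the markers summed to 1.69 to 4.89 CPM with vehicle and 51.9 to 94.7 CPM with papain, and their part in the rises of S100a8, S100a9 and Lcn2 was not tested. With Il1r2, the summed level of the 15 ranged over 55.7 to 78.9 CPM with vehicle and over 66.8 to 110.5 CPM with papain. In bulk libraries, more cells of a type and more RNA per cell cannot be told apart.

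Genes of protease inhibitors rose in several families. Stefins inhibit cysteine proteases of the papain type, and in the Stefin A cluster 7 rose of 10 tested, with a median log2 fold change of 2.78 (2.12 with genes at the floor set to their bound). BC100530, a Stefin A family gene, stood at 42.7, 51.5, 50.2 and 44.6 CPM with vehicle and 314, 411, 555 and 451 CPM with papain (log2 fold change 3.19, SE 0.15, edgeR adjusted p = 1.69e-10). Stfa1 rose from 21.96 ± 3.11 to 136 ± 19.6 CPM (log2 fold change 2.63, SE 0.13, edgeR adjusted p = 1.04e-10), Stfa2 rose from 0.187 ± 0.0703 to 3.06 ± 0.524 CPM and Gm5416 rose from 0.0535 ± 0.0485 to 11.4 ± 4.29 CPM, 2010005H15Rik rose from 0.0855 ± 0.0435 to 0.606 ± 0.227 CPM. BC117090 rose from 0.422 ± 0.184 to 1.30 ± 0.249 CPM. Stfa3, with 142 ± 29.7 CPM with vehicle and 161 ± 13.9 CPM with papain, did not pass and its groups overlapped, and Stfa2l1 and Gm5483 were near the floor. Csta1 rose from 21.98 ± 3.32 to 48.8 ± 19.7 CPM. Csta1 did not pass without T113 (log2 fold change 0.82, adjusted p = 0.00326). The cluster on chromosome 16 lies within 35832874 to 36408457, where 11 of 20 genes tested rose, the neighbouring interferon-stimulated genes Parp14, Dtx3l and Parp9 among them. The Stefin A genes are near copies and their counts may be shared. Of their target class, the cathepsin genes Ctsb (289 ± 20.5 to 706 ± 95.9 CPM) and Ctsz (3.57 ± 0.996 to 9.77 ± 2.59 CPM) rose, 2 of 14 papain-family proteases and cystatins.

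Serpins are suicide inhibitors, mostly of serine proteases, and 7 rose and 2 fell of 26 tested, with a median log2 fold change of 0.47. Serpina3n stood at 0.258, 0.918, 0.299 and 0.360 CPM with vehicle and 30.5, 60.6, 59.9 and 40.4 CPM with papain (log2 fold change 6.66, SE 0.38, edgeR adjusted p = 1.18e-08), with the groups far apart. Serpinb1a, an inhibitor of neutrophil proteases, stood at 17.1, 13.3, 13.1 and 14.5 CPM with vehicle and 135, 186, 249.6 and 189 CPM with papain (log2 fold change 3.71, SE 0.15, edgeR adjusted p = 5.70e-11). Serpinb3c rose from 0.138 ± 0.0562 to 3.57 ± 3.35 CPM. Serpinb6c rose from 4.53 ± 0.806 to 20.5 ± 3.40 CPM. Serpinb10 and Serpinb7 went the other way: Serpinb10 fell from 90.3 ± 10.9 to 19.9 ± 3.11 CPM (log2 fold change -2.18, SE 0.11, edgeR adjusted p = 1.41e-10). Serpinb7 fell from 97.1 ± 18.8 to 41.5 ± 5.92 CPM. Without T109 Serpina3n had a log2 fold change of 7.27. Without T114 Serpinb3c had a log2 fold change of 3.84. Kallikreins, the serine proteases that shed the cornified layer, had 2 rises of 17 tested: Klk6 rose from 0.882 ± 0.180 to 8.51 ± 3.14 CPM (log2 fold change 3.27, SE 0.34, edgeR adjusted p = 1.09e-06). Klk9 rose from 3.40 ± 0.401 to 14.1 ± 7.10 CPM. Of matrix proteases and their inhibitors, 5 rose and 5 fell of 26 tested, with a median log2 fold change of 0.60. The collagenase gene Mmp13 stood at 13.5, 3.14, 1.33 and 3.78 CPM with vehicle and 39.4, 109.9, 47.7 and 40.2 CPM with papain (log2 fold change 3.45, SE 0.71, edgeR adjusted p = 0.00179), a rise with a wide spread among the papain libraries. Mmp1b rose from 0.308 ± 0.277 to 3.40 ± 0.928 CPM, Mmp3 rose from 11.999 ± 6.74 to 47.2 ± 10.8 CPM and Mmp9 rose from 1.64 ± 0.872 to 10.1 ± 5.29 CPM. Timp1, an inhibitor of these enzymes, rose from 0.0971 ± 0.0145 to 1.601 ± 0.390 CPM. Adamts18, a secreted metalloprotease gene, fell from 2.13 ± 1.16 to 0.0886 ± 0.0896 CPM (log2 fold change -4.46, SE 0.48, edgeR adjusted p = 6.63e-07), and the other falls were of Adamts9, Mmp2, Mmp11 and Timp3. Without T108 Mmp13 had a log2 fold change of 4.41. Without T108 Mmp1b had a log2 fold change of 4.24. Without T106 Adamts18 had a log2 fold change of -5.41.

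Interferon-stimulated genes encode antiviral effectors and sensors that the interferon-stimulated response element (ISRE) of their promoters switches on through the STAT and IRF factors. On the I3C diet 19 rose of 33 tested, with a median log2 fold change of 2.29 (1.94 with genes at the floor set to their bound), and 26 had all 4 papain libraries above all vehicle libraries. Promoters of 4 of the genes that rose and hold the element are printed to show its letters. They are the 150 bases before the start site of RefSeq on GRCm38.p6, read 5′ to 3′ along the gene, with matches to the ISRE core GAAANNGAA on either strand in capitals: Isg15 (chr4:156200819-156200968, minus strand), Oas1a (chr5:120907526-120907675, minus strand), Oas3 (chr5:120777660-120777809, minus strand) and Bst2 (chr8:71537473-71537622, minus strand).
Isg15: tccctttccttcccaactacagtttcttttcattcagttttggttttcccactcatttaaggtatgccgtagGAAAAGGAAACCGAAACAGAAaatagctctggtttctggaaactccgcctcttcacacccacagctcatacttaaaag
Oas1a: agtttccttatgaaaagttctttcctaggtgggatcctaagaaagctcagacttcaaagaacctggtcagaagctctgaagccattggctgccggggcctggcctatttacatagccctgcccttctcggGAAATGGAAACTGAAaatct
Oas3: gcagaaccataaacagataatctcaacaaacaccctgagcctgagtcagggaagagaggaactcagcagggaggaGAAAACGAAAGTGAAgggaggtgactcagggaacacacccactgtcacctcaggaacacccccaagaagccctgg
Bst2: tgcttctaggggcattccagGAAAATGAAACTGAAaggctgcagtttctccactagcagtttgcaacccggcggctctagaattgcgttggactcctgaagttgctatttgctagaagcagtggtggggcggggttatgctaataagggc

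Isg15, a ubiquitin-like modifier, stood at 0.833, 0.867, 0.898 and 1.05 CPM with vehicle and 7.16, 3.08, 13.3 and 6.24 CPM with papain (log2 fold change 3.03, SE 0.53, edgeR adjusted p = 4.50e-04). Oas1a, a sensor of double-stranded RNA, stood at 0.861, 0.382, 0.354 and 0.480 CPM with vehicle and 3.02, 2.28, 7.05 and 4.55 CPM with papain (log2 fold change 3.02, SE 0.44, edgeR adjusted p = 4.32e-05). Oas3 rose from 0.192 ± 0.134 to 2.14 ± 0.981 CPM (log2 fold change 3.496, SE 0.66, edgeR adjusted p = 6.51e-04). Bst2, which tethers budding virus, rose from 1.44 ± 0.153 to 7.95 ± 2.49 CPM (log2 fold change 2.47, SE 0.30, edgeR adjusted p = 5.89e-06). T113 was the lowest papain library for Isg15 and Oasl2 and stayed above every vehicle library. Oasl2 stood at 0.431, 0.663, 0.299 and 0.480 CPM with vehicle and 13.5, 8.43, 32.0 and 20.3 CPM with papain (log2 fold change 5.29, SE 0.62, edgeR adjusted p = 1.37e-05), Oas2 rose from 0.169 ± 0.111 to 3.45 ± 1.42 CPM. Irf9, the DNA-binding subunit of the interferon-stimulated factor, rose from 35.1 ± 2.23 to 72.3 ± 15.1 CPM. Genes at the floor with vehicle rose by at least 18.3-fold for the nucleic acid sensor Zbp1 (16.1 without T114), at least 11.6-fold for Ifi44 (7.10 without T114) and at least 10.1-fold for Rtp4 (8.70 without T114). Irf9 did not pass without T114 (log2 fold change 0.91, adjusted p = 1.19e-06). In 300-base promoters (250 before and 50 after the start), the ISRE core was found in 14 of the 23 list genes with a promoter in the RefSeq table, against 8.56% of all 27025 promoters. Among the list genes it was in 7 of 11 that rose and 7 of 12 that did not pass. Oasl2, Irf9, Ifi35 and Xaf1 rose with no match, while Ifit1 and Ifit3, with 3 matches each, did not pass. The core was in 10.9% of the promoters of all genes that rose, 7.04% of those that fell and 7.27% of those that did not pass. The AP-1 letters TGANTCA were found in 10.3%, 6.55% and 5.66%, and the NF-κB letters GGANTTTCC in 2.21%, 0.971% and 1.37%.

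The list of GTPases and other genes that interferon-γ induces had 6 rises and 1 fall of 19 tested. It holds guanylate-binding proteins, immunity-related GTPases, Irf1 and the chemokine genes Cxcl9, Cxcl10 and Cxcl11. Gbp2 stood at 2.67, 0.841, 1.66 and 0.720 CPM with vehicle and 8.31, 5.68, 13.3 and 9.85 CPM with papain (log2 fold change 2.66, SE 0.53, edgeR adjusted p = 0.00128), Gbp3 rose from 0.139 ± 0.0818 to 1.46 ± 0.524 CPM and Gbp7 rose from 0.573 ± 0.303 to 3.40 ± 1.70 CPM. Iigp1 rose from 0.105 ± 0.126 to 0.984 ± 0.803 CPM. Igtp rose too, while Gbp5 had 0.210 CPM with papain and at most 3 counts with vehicle. The fall was that of Irf1, the factor that interferon-γ induces first, which stood at 410.2, 154, 216 and 239 CPM with vehicle and 75.5, 69.3, 65.7 and 62.5 CPM with papain (log2 fold change -1.90, SE 0.34, edgeR adjusted p = 5.08e-04). The 4 papain libraries were close together for Irf1, and T108 was the highest vehicle library. Slfn4, a Schlafen gene of myeloid cells, was above the floor in all 4 papain libraries, and stood at 0, 0.0255, 0.0272 and 0 CPM with vehicle and 22.2, 3.30, 0.542 and 1.14 CPM with papain, at least 81.2-fold higher (19.9 without T106). The other 6 Schlafen genes did not pass, although all 7 of the family had a positive log2 fold change. The median was 1.67 (1.44 with genes at the floor set to their bound), and 5 had all papain libraries above all vehicle libraries. At an unadjusted p below 0.05 6 of the 7 were higher, and 4 rose by DESeq2. Gbp5 did not pass when any of T109, T110, T111, T106, T113, T114, T100, T101, T102, T103 and T104 was left out (adjusted p up to 0.0295). Iigp1 did not pass when any of T109, T110, T111 and T114 was left out (log2 fold change 2.48 to 3.06, adjusted p up to 0.0142). Without T108 Iigp1 had a log2 fold change of 4.30. Slfn4 did not pass when any of T108, T109, T110, T111, T106, T113, T100, T101, T102, T103 and T104 was left out (adjusted p up to 0.0274). For antigen presentation on MHC class I, 5 rose of 19 tested, with a median log2 fold change of 0.31. Nlrc5, the transactivator of class I genes, stood at 10.45, 8.90, 11.4 and 4.44 CPM with vehicle and 57.7, 63.7, 95.0 and 96.4 CPM with papain (log2 fold change 3.15, SE 0.25, edgeR adjusted p = 2.11e-07), the immunoproteasome genes Psmb8, Psmb9 and Psmb10 rose from 4.11 ± 0.693 to 11.6 ± 1.38 CPM, from 3.23 ± 0.573 to 9.09 ± 1.85 CPM and from 8.57 ± 0.601 to 28.8 ± 3.26 CPM, and the peptide trimming enzyme gene Erap1 rose from 31.0 ± 6.30 to 78.8 ± 10.9 CPM. MHC class II genes, carried by Langerhans cells, had 0 calls of 11 by edgeR (1 higher and 1 lower at an unadjusted p below 0.05, and 0 higher and 0 lower by DESeq2), with H2-Ab1 at 53.0 ± 21.7 CPM with vehicle and 68.7 ± 36.5 CPM with papain and overlapping groups.

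**Figure D3:**
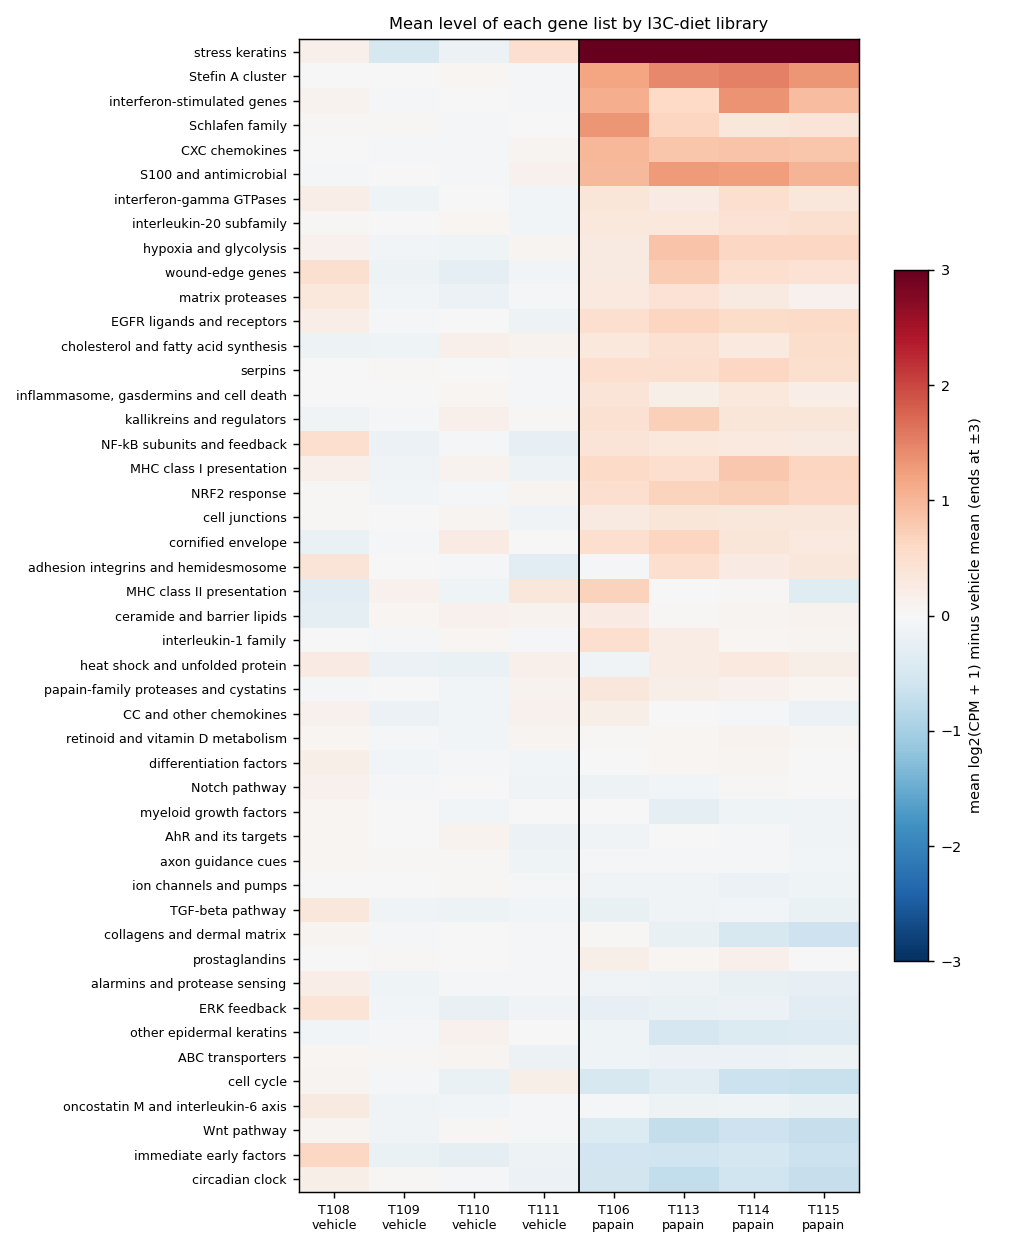
Mean log2(CPM + 1) of the tested members of each gene list in each of the 8 I3C-diet libraries, minus the mean of the 4 vehicle libraries (colour scale from -3 to 3, red higher). Stress keratins, the Stefin A cluster and the interferon-stimulated genes are red in all 4 papain libraries, and the clock and Wnt lists are blue in all 4. The immediate early list is reddest in T108, a vehicle library.

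Growth factors of the EGFR family, which drive keratinocyte migration and growth, had 4 rises and 1 fall of 12 tested, all among the ligands. Tgfa stood at 22.97, 11.4, 12.1 and 10.3 CPM with vehicle and 40.3, 80.3, 61.7 and 54.9 CPM with papain (log2 fold change 2.06, SE 0.26, edgeR adjusted p = 1.84e-05). Areg stood at 16.5, 9.18, 8.32 and 9.66 CPM with vehicle and 21.6, 35.4, 25.0 and 23.5 CPM with papain (log2 fold change 1.27, SE 0.20, edgeR adjusted p = 9.14e-05), Nrg1 rose from 5.91 ± 1.89 to 22.1 ± 6.64 CPM. Epgn rose from 38.8 ± 26.3 to 113.6 ± 30.5 CPM. Nrg4 fell from 3.12 ± 0.966 to 0.978 ± 0.391 CPM. In each of Tgfa and Areg the highest vehicle library was T108, and it lay below every papain library. The ligands Hbegf and Ereg did not pass (234 ± 83.6 CPM with vehicle and 183 ± 8.21 CPM with papain, and 7.89 ± 3.69 CPM with vehicle and 13.2 ± 8.20 CPM with papain), nor did the receptor gene Egfr, with 132 ± 15.4 CPM with vehicle and 219.9 ± 25.9 CPM with papain and all papain libraries above. Epgn did not pass when any of T109, T110, T111 and T113 was left out (log2 fold change 1.37 to 1.41, adjusted p up to 0.0143). Of ERK feedback genes, 1 of 17 fell: Spred2, an inhibitor of the pathway, fell from 78.8 ± 12.3 to 32.0 ± 2.13 CPM (log2 fold change -1.30, SE 0.09, edgeR adjusted p = 6.70e-09).

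Cytokines and alarmins moved gene by gene. Tslp, an epithelial alarmin of type 2 immunity, stood at 4.22, 1.71, 2.12 and 2.37 CPM with vehicle and 8.50, 6.54, 9.76 and 8.58 CPM with papain (log2 fold change 1.68, SE 0.26, edgeR adjusted p = 5.73e-05). All 4 papain libraries exceeded the highest vehicle library, T108. Il33, another alarmin, had 24.7 ± 9.11 CPM with vehicle and 23.4 ± 7.33 CPM with papain and did not pass. Il17rb, the receptor gene for the alarmin interleukin-25, fell from 18.6 ± 1.43 to 5.33 ± 0.907 CPM (log2 fold change -1.80, SE 0.12, edgeR adjusted p = 2.24e-09). F2r, the protease-activated receptor gene for thrombin, fell from 28.4 ± 5.87 to 11.9 ± 0.929 CPM (log2 fold change -1.26, SE 0.12, edgeR adjusted p = 2.45e-07). F2rl1, the receptor that trypsin-like proteases activate, had 103.4 ± 39.1 CPM with vehicle and 82.8 ± 4.87 CPM with papain and did not pass. In the interleukin-1 family Il18r1 rose from 1.01 ± 0.207 to 6.79 ± 1.02 CPM (log2 fold change 2.75, SE 0.20, edgeR adjusted p = 1.18e-08) and Il1b rose from 0.378 ± 0.267 to 6.15 ± 5.97 CPM and the decoy receptor gene Il1r2 fell from 66.7 ± 8.95 to 23.2 ± 10.9 CPM. Il24, of the interleukin-20 subfamily that acts on keratinocytes, stood at 4.59, 1.53, 1.52 and 2.31 CPM with vehicle and 10.1, 25.5, 13.6 and 14.4 CPM with papain (log2 fold change 2.68, SE 0.40, edgeR adjusted p = 9.76e-05), and its neighbour Il19 rose from 0.0748 ± 0.0537 to 0.511 ± 0.121 CPM. Osmr, the receptor gene for oncostatin M, rose from 42.9 ± 9.29 to 99.1 ± 10.9 CPM (log2 fold change 1.21, SE 0.13, edgeR adjusted p = 6.61e-07) while Lifr, its relative, fell from 43.5 ± 7.62 to 14.3 ± 3.19 CPM (log2 fold change -1.60, SE 0.15, edgeR adjusted p = 2.05e-07). The related genes Il6st and Clcf1 rose from 146 ± 30.2 to 306 ± 60.8 CPM and from 30.2 ± 11.28 to 68.5 ± 33.3 CPM. Cish fell from 181 ± 47.4 to 85.1 ± 4.15 CPM. Il1b did not pass when any of T108, T109 and T110 was left out (log2 fold change 3.76 to 4.16, adjusted p up to 0.0175). Without T106 Il1b had a log2 fold change of 3.07. Il1r2 did not pass without T113 (log2 fold change -1.39, adjusted p = 0.0104). Il6st did not pass when any of T111 and T115 was left out (log2 fold change 0.95 to 0.97, adjusted p up to 1.83e-05). Clcf1 did not pass when any of T109, T110, T111, T113, T114, T100, T101, T102, T103, T104, T105 and T107 was left out (log2 fold change 0.78 to 1.24, adjusted p up to 0.0338). Cish did not pass without T108 (log2 fold change -0.92, adjusted p = 8.60e-04).

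The myeloid growth factors that share the receptor Csf1r went in opposite directions. Csf1 stood at 18.4, 22.4, 20.2 and 20.3 CPM with vehicle and 56.6, 53.9, 83.4 and 74.9 CPM with papain (log2 fold change 1.72, SE 0.13, edgeR adjusted p = 1.40e-08). Il34, the ligand that maintains Langerhans cells, stood at 137, 147, 156 and 143 CPM with vehicle and 56.4, 38.2, 32.5 and 36.0 CPM with papain (log2 fold change -1.83, SE 0.16, edgeR adjusted p = 1.22e-07). Neither pair of groups overlapped. Among CXC chemokines and their receptor, only Cxcr2 of 6 tested rose (0.705 ± 0.207 to 24.2 ± 4.25 CPM, log2 fold change 5.10, SE 0.30, edgeR adjusted p = 7.16e-09). Cxcl1 had 53.9 ± 17.6 CPM with vehicle and 54.2 ± 4.17 CPM with papain. Cxcl2 went from a mean of 5.44 to 11.7 CPM (log2 fold change 1.10, edgeR adjusted p = 0.0687) and did not pass. Nor did Cxcl3 (0.0334 to 0.294 CPM, log2 fold change 3.00, edgeR adjusted p = 0.0421). Ppbp had 0 counts in all 8 libraries. At an unadjusted p below 0.05 3 of the 6 were higher, and 2 rose by DESeq2. Cxcl14, which resting epidermis makes, fell from 100.5 ± 46.1 to 29.8 ± 5.79 CPM (log2 fold change -1.75, SE 0.33, edgeR adjusted p = 8.65e-04). Ccl22 rose from 2.99 ± 1.75 to 13.2 ± 5.68 CPM and Ccl20 rose from 13.2 ± 4.75 to 29.2 ± 3.41 CPM. Ccl28 fell from 1.597 ± 0.514 to 0.615 ± 0.261 CPM. Ccl22 did not pass without T109 (log2 fold change 1.997, adjusted p = 0.011). Ccl20 did not pass when any of T109, T110, T111, T106, T113, T114, T115, T102, T103, T105, T107 and T112 was left out (log2 fold change 0.99 to 1.23, adjusted p up to 0.0278). Ccl28 did not pass when any of T109, T110, T111, T114 and T115 was left out (log2 fold change -1.21 to -1.33, adjusted p up to 0.0168). Ccr7, the receptor that leads Langerhans cells to lymph nodes, stood at 0.402, 0.637, 0.599 and 1.17 CPM with vehicle and 5.19, 5.87, 5.34 and 1.77 CPM with papain (log2 fold change 2.69, SE 0.39, edgeR adjusted p = 3.67e-05), with T115 the lowest papain library. Of NF-κB subunits and regulators, 2 of 17 rose, both regulators: Bcl3 rose from 35.6 ± 16.9 to 117 ± 24.3 CPM (log2 fold change 1.72, SE 0.30, edgeR adjusted p = 4.84e-04). Tnip3 rose from 0.269 ± 0.129 to 0.794 ± 0.195 CPM. Tnip3 did not pass when any of T109 and T106 was left out (log2 fold change 1.24 to 1.38, adjusted p up to 0.0167).

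Immediate early genes, which cell stress and tissue handling induce within minutes, were high in all 8 libraries and lower with papain: 3 fell and 12 of 24 had all papain libraries below all vehicle libraries. Nr4a1 stood at 2734, 1369, 1352 and 1502 CPM with vehicle and 882, 801, 789 and 692 CPM with papain (log2 fold change -1.14, SE 0.24, edgeR adjusted p = 0.00155), Myc fell from 424 ± 119 to 201 ± 13.8 CPM. Klf2 fell from 114.5 ± 38.5 to 34.5 ± 13.6 CPM. Of other early response genes, the mRNA decay factor gene Zfp36 fell from 3133 ± 864 to 1492 ± 148 CPM and Ccn1 fell from 1333 ± 442 to 633 ± 85.7 CPM and the antiproliferative gene Btg2 fell from 1250.0 ± 560.4 to 525 ± 83.2 CPM. Fos (5825 ± 1265 CPM with vehicle and 3235 ± 100.2 CPM with papain), Egr1 (3646 ± 1385 CPM with vehicle and 1897 ± 64.7 CPM with papain) and Jun (3665 ± 921 CPM with vehicle and 2262 ± 118 CPM with papain) lay below in all 4 papain libraries, within a log2 fold change of 1. T108 was the vehicle library with the highest immediate early levels, and without it the calls of all 6 genes that fell were lost. Nr4a1 did not pass without T108 (log2 fold change -0.85, adjusted p = 0.00229). Myc did not pass without T108 (log2 fold change -0.88, adjusted p = 2.00e-06). Klf2 did not pass when any of T108, T114 and T115 was left out (log2 fold change -1.52 to -1.61, adjusted p up to 0.015). Zfp36 did not pass without T108 (log2 fold change -0.89, adjusted p = 0.00215). Ccn1 did not pass when any of T108 and T106 was left out (log2 fold change -0.86 to -0.995, adjusted p up to 0.00322). Btg2 did not pass when any of T108, T111, T106, T113, T114, T115, T104 and T105 was left out (log2 fold change -0.92 to -1.35, adjusted p up to 0.0223).

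Genes of the TGF-β pathway had 1 rise and 4 falls of 23 tested, with a median of -0.25. Ltbp1, which encodes a protein that tethers latent TGF-β, stood at 14.8, 14.1, 12.4 and 9.005 CPM with vehicle and 46.9, 67.5, 56.7 and 66.9 CPM with papain (log2 fold change 2.24, SE 0.15, edgeR adjusted p = 4.17e-09). The ligand gene Tgfb3 fell from 6.24 ± 2.03 to 1.47 ± 0.587 CPM (log2 fold change -2.07, SE 0.31, edgeR adjusted p = 4.12e-05). The other falls of the list were of Id1, Id2 and Id3, from 258 ± 41.6 to 105.3 ± 17.3 CPM, from 41.8 ± 8.15 to 18.1 ± 3.43 CPM and from 281 ± 67.9 to 133 ± 11.9 CPM. Whether their falls reflect TGF-β signalling was not tested. Of dermal matrix genes, 1 rose and 5 fell of 24: Col6a1 fell from 73.6 ± 9.34 to 17.2 ± 3.58 CPM (log2 fold change -2.10, SE 0.15, edgeR adjusted p = 1.18e-08), Col5a2 fell from 18.3 ± 3.99 to 5.18 ± 1.84 CPM and Dcn fell from 7.11 ± 1.45 to 2.15 ± 1.43 CPM. Col6a2 fell from 2.51 ± 0.424 to 0.818 ± 0.520 CPM, and Col16a1 fell too, while Col12a1 rose from 55.7 ± 17.0 to 159 ± 34.6 CPM. Id3 did not pass without T108 (log2 fold change -0.94, adjusted p = 0.00204). Dcn did not pass when any of T108, T109, T110, T111, T113, T114, T115, T101, T103, T104 and T105 was left out (log2 fold change -1.44 to -1.94, adjusted p up to 0.026). Col6a2 did not pass when any of T111, T113, T114 and T115 was left out (log2 fold change -1.40 to -1.53, adjusted p up to 0.0151).

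The Wnt pathway had 6 falls of 24 tested, and 15 genes had all papain libraries below all vehicle libraries. Lgr6, which marks stem cells of the epidermis and encodes a receptor for R-spondins, stood at 107.5, 67.9, 96.0 and 69.5 CPM with vehicle and 28.7, 28.8, 20.95 and 16.8 CPM with papain (log2 fold change -1.84, SE 0.19, edgeR adjusted p = 1.59e-06). Dkk3 fell from 40.0 ± 9.09 to 14.7 ± 2.90 CPM, Notum fell from 0.967 ± 0.346 to 0.182 ± 0.135 CPM and Wnt7a fell from 2.70 ± 0.85001 to 0.968 ± 0.239 CPM. Wnt10b fell from 11.8 ± 2.66 to 5.24 ± 0.762 CPM, and the other fall was of Nkd2. The cell cycle list, which holds S phase and mitosis genes and 3 inhibitors, had 5 falls of 34 tested, all of them genes of mitosis: Cenpf fell from 59.4 ± 14.8 to 24.9 ± 6.14 CPM, Aurkb fell from 37.9 ± 8.78 to 17.2 ± 4.18 CPM and Aurka fell from 26.7 ± 9.87 to 12.9 ± 2.35 CPM. Cdk1 fell from 61.7 ± 16.02 to 30.4 ± 4.93 CPM, and Birc5 fell too. Of the 34 genes, 22 had all papain libraries below all vehicle libraries, and 24 were lower at an unadjusted p below 0.05. The median log2 fold change of the list was -0.58. Mki67, with 288 ± 44.7 CPM with vehicle and 157 ± 33.0 CPM with papain, stayed within a log2 fold change of 1. The replication genes did not pass, with log2 fold changes of 0.21 for Mcm2, 0.33 for Mcm4 and -0.13 for Pcna, nor did the inhibitor genes Cdkn1a (-0.53), Cdkn1b (-0.58) and Cdkn1c (-0.95). Aurkb did not pass without T111 (log2 fold change -0.98, adjusted p = 0.00293). Aurka did not pass when any of T111 and T115 was left out (log2 fold change -0.77 to -0.97, adjusted p up to 0.00839). Cdk1 did not pass when any of T111, T114 and T115 was left out (log2 fold change -0.83 to -0.97, adjusted p up to 0.00629). Clock genes had 3 falls of 19, all 3 of them output or feedback factors. Hlf stood at 169.9, 208, 186 and 205 CPM with vehicle and 65.4, 38.8, 40.9 and 44.5 CPM with papain (log2 fold change -2.02, SE 0.16, edgeR adjusted p = 7.46e-08), Dbp fell from 221 ± 21.7 to 78.0 ± 13.5 CPM. Bhlhe41 fell from 25.8 ± 1.84 to 9.72 ± 2.49 CPM. The clock time at which each library was collected is not in the labels.

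The 12 largest falls among genes with a mean of at least 1 CPM were of diverse function. They include Abcc6, a transporter gene, which stood at 3.56, 3.44, 4.41 and 2.58 CPM with vehicle and 0.292, 0.192, 0.171 and 0.0746 CPM with papain (log2 fold change -4.23, SE 0.32, edgeR adjusted p = 1.40e-08), and Rerg, a Ras-like inhibitor of growth, which fell from 3.98 ± 1.06 to 0.270 ± 0.103 CPM (log2 fold change -3.86, SE 0.32, edgeR adjusted p = 3.22e-08). Csgalnact1, an enzyme gene of chondroitin sulfate synthesis, fell from 12.6 ± 5.18 to 1.13 ± 0.537 CPM, Bco1, which cleaves β-carotene, fell from 3.66 ± 0.145 to 0.264 ± 0.0840 CPM and Pacsin1, an endocytic adaptor gene, fell from 5.21 ± 2.64 to 0.394 ± 0.387 CPM. Tcea3, an elongation factor gene, fell from 2.09 ± 0.532 to 0.225 ± 0.173 CPM. Channel genes were 3 of the 12: Kcnj16 fell from 3.88 ± 0.433 to 0.250 ± 0.147 CPM, the glutamate receptor gene Grik4 fell from 3.07 ± 1.43 to 0.250 ± 0.123 CPM and the calcium channel gene Cacna1g fell from 2.80 ± 0.301 to 0.259 ± 0.187 CPM. The remaining ones were Adamts18, the unclassified locus Gm42910 (2.24 ± 1.09 to 0.0938 ± 0.0277 CPM) and Tbx3os1, an antisense gene of Tbx3 (4.52 ± 1.93 to 0.273 ± 0.131 CPM). The 12 largest rises held, beside genes already described, the urate oxidase gene Uox (0.121 ± 0.0884 to 11.2 ± 8.21 CPM), the nucleotidase gene Nt5c1a (0.0716 ± 0.0897 to 4.63 ± 1.71 CPM), Antxrl (0.0818 ± 0.0911 to 4.70 ± 0.968 CPM) and Gm16549, an antisense gene at least 45.6-fold above the floor (38.8 without T114). Whether the counting used strand is not given in the sources used here, so antisense genes may hold reads of their partners. Without T106 Pacsin1 had a log2 fold change of -4.63. Without T110 Antxrl had a log2 fold change of 6.85. Fabp5, a fatty acid carrier of keratinocytes and 1 of the 6 largest gains in CPM among called genes, with the 4 stress keratins and Myh9, stood at 397, 473, 590.1 and 643 CPM with vehicle and 1564, 2068, 2085 and 2051 CPM with papain (log2 fold change 1.88, SE 0.17, edgeR adjusted p = 2.05e-07).

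AhR target genes, which the diet could bear on, changed in both directions: 2 rose and 3 fell of 12 tested, with a median log2 fold change of -0.17. Cyp1a1, the classical target, stood at 0.660, 1.81, 2.64 and 0.840 CPM with vehicle and 0.244, 0.192, 0.0571 and 0.448 CPM with papain (log2 fold change -2.62, SE 0.52, edgeR adjusted p = 6.67e-04), a low level in every library. Aldh3a1, an aldehyde dehydrogenase gene, stood at 243, 229, 212 and 239 CPM with vehicle and 93.4, 61.6, 75.3 and 57.4 CPM with papain (log2 fold change -1.68, SE 0.16, edgeR adjusted p = 7.05e-07), and the third fall was of Ugt1a7c. Nqo1 rose from 7.89 ± 1.25 to 39.4 ± 9.098 CPM (log2 fold change 2.32, SE 0.22, edgeR adjusted p = 4.86e-07). Gsta1 rose from 1.10 ± 0.207 to 5.27 ± 0.921 CPM, and both are also targets of the oxidative stress factor NRF2. The receptor gene Ahr (64.5 ± 16.7 CPM with vehicle and 51.3 ± 5.68 CPM with papain) and its repressor gene Ahrr (0.570 ± 0.277 CPM with vehicle and 0.616 ± 0.217 CPM with papain) did not pass, nor did Tiparp (172 ± 62.2 CPM with vehicle and 178 ± 20.5 CPM with papain). Of NRF2 target genes, 4 rose and 1 fell of 21 tested, with a median log2 fold change of 0.31. Gsta4, a glutathione transferase gene, stood at 8.01, 5.66, 9.82 and 10.48 CPM with vehicle and 100.9, 213, 178 and 149.9 CPM with papain (log2 fold change 4.24, SE 0.30, edgeR adjusted p = 1.11e-07), and the cystine transporter gene Slc7a11 rose from 3.91 ± 1.40 to 34.2 ± 5.30 CPM (log2 fold change 3.13, SE 0.32, edgeR adjusted p = 3.37e-06), whereas Gstm1 fell from 105.9 ± 3.82 to 46.9 ± 6.64 CPM. The heme oxygenase gene Hmox1 rose too. In retinoid and vitamin D metabolism, Cyp27b1, which makes active vitamin D, rose from 0.852 ± 0.141 to 3.95 ± 0.729 CPM (log2 fold change 2.21, SE 0.26, edgeR adjusted p = 1.97e-06), the retinol dehydrogenase gene Dhrs9 rose from 1.19 ± 0.560 to 5.05 ± 1.01 CPM and the retinoic acid carrier gene Crabp2 rose from 88.3 ± 24.8 to 215 ± 28.6 CPM, while the retinol uptake gene Stra6 fell from 4.61 ± 1.04 to 1.17 ± 0.311 CPM. Aldh1a1 fell from 2.42 ± 0.474 to 0.993 ± 0.306 CPM.

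Lipid mediators and cell death genes gave a few firm changes. Alox8, a lipoxygenase gene induced in irritated mouse skin, rose from 1.01 ± 0.263 to 10.51 ± 4.98 CPM (log2 fold change 3.37, SE 0.29, edgeR adjusted p = 5.15e-08), Ptges, the prostaglandin E synthase gene, stood at 95.5, 61.3, 74.8 and 67.1 CPM with vehicle and 217, 261, 309 and 249.6 CPM with papain (log2 fold change 1.80, SE 0.14, edgeR adjusted p = 3.11e-08), and Pla2g4e rose from 36.2 ± 9.54 to 119 ± 20.7 CPM, while Alox12e, an epidermal lipoxygenase gene, fell from 327 ± 93.7 to 110.9 ± 44.4 CPM. Gsdmc, a pore-forming gasdermin gene, stood at 21.996, 57.3, 64.3 and 32.0 CPM with vehicle and 301, 222, 369 and 347 CPM with papain (log2 fold change 2.82, SE 0.30, edgeR adjusted p = 4.63e-06). Gasdermin C has several near copies in the mouse, so this count may be shared. Gsdma rose from 24.5 ± 8.25 to 58.9 ± 4.49 CPM. Nlrp10 fell from 35.3 ± 5.86 to 12.2 ± 2.95 CPM. Of genes for ceramides and barrier lipids, 2 rose and 1 fell of 29 tested, with a median log2 fold change of 0.24: Lipk rose from 0.297 ± 0.0878 to 2.33 ± 0.882 CPM and Elovl7 rose from 112.8 ± 14.05 to 250.4 ± 31.8 CPM. Sptlc3 fell from 81.2 ± 13.7 to 35.7 ± 11.4 CPM. In cholesterol and fatty acid synthesis, 1 of 31 passed (Ebp, which rose), although 16 had all papain libraries above all vehicle libraries. In the hypoxia and glycolysis list 4 of 25 rose, Pgk1 (118 ± 15.001 to 278 ± 56.6 CPM), Pgam1 (56.3 ± 2.77 to 124 ± 15.7 CPM), Pfkfb3 and Slc16a3. Of its members 13 had all papain libraries above all vehicle libraries, 1 had all below, and the median log2 fold change was 0.68. In the heat shock and unfolded protein list, Asns rose and the chaperone gene Dnajb1 fell, Sdf2l1 rose from 9.28 ± 1.31 to 32.7 ± 4.67 CPM (log2 fold change 1.81, SE 0.13, edgeR adjusted p = 6.25e-09), and Pdia4 and Xbp1 rose from 73.0 ± 6.57 to 171 ± 19.9 CPM and from 73.5 ± 5.08 to 161 ± 20.1 CPM. Ehf, an epithelial ETS factor gene, rose from 19.8 ± 3.22 to 84.8 ± 19.1 CPM (log2 fold change 2.10, SE 0.15, edgeR adjusted p = 1.49e-08) and was the single rise among 23 transcription factor genes of keratinocyte differentiation.

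Channels, transporters and guidance genes moved in both directions. The sodium channel subunit genes Scnn1a (39.1 ± 10.9 to 126 ± 7.11 CPM) and Scnn1b (0.568 ± 0.270 to 3.004 ± 0.722 CPM) and the calcium pump gene Atp2a2 rose, and Trpc1 fell. Abcg4 rose from 6.58 ± 2.43 to 18.0 ± 2.89 CPM and Abcg2 rose from 35.3 ± 7.26 to 89.6 ± 10.1 CPM. Abcg1, a cholesterol exporter gene, fell from 13.0 ± 2.999 to 4.995 ± 1.44 CPM. Sema3d, a secreted semaphorin gene, stood at 117, 87.2, 120.0 and 42.2 CPM with vehicle and 18.1, 7.99, 7.11 and 10.54 CPM with papain (log2 fold change -3.06, SE 0.37, edgeR adjusted p = 1.93e-05), with 1 vehicle library, T111, lower than the others and still above papain. Nrp2, a receptor gene for class 3 semaphorins, stood at 8.67, 7.57, 6.203 and 8.85 CPM with vehicle and 29.5, 49.3, 32.8 and 32.2 CPM with papain (log2 fold change 2.20, SE 0.18, edgeR adjusted p = 5.90e-08). Efna5 rose from 20.5 ± 2.22 to 59.0 ± 9.86 CPM. Robo2 fell from 17.4 ± 5.66 to 5.81 ± 0.638 CPM, and in the same list Sema6d and Slit1 rose and Ntn4 fell.

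Marker lists of cell types that an epidermal suspension could hold were set beside these results. Basal keratinocyte markers summed to 30401 to 38714 CPM with vehicle and 24492 to 27211 CPM with papain, and 2 of 8 fell, Krt15 and Dst. Langerhans cell markers had 3 rises of 11 (Ccr7, Il1b and Mpeg1), their defining marker Cd207 had 17.9 ± 5.77 CPM with vehicle and 13.9 ± 8.47 CPM with papain and overlapped, and their sum ranged over 331 to 587 CPM and 352 to 724 CPM. The markers of dendritic epidermal T cells had 0 calls of 13 by edgeR (2 higher and 0 lower at an unadjusted p below 0.05, and 0 higher and 0 lower by DESeq2). Their sum was 96.6 to 125 CPM with vehicle and 178 to 217 CPM with papain, above in all 4. Their mean log2(CPM + 1) did not follow, at 0.79, 0.06, -0.08 and -0.26 from the vehicle mean in T106, T113, T114 and T115. The defining marker Trdc did not pass (log2 fold change 0.18, edgeR adjusted p = 0.754), and its groups overlapped. Eccrine gland markers summed to 173 to 205 CPM and to 100.2 to 132 CPM, with falls of Aqp5 (3.78 ± 1.51 to 0.927 ± 0.249 CPM) and Kcnj16, 2 of 7 tested. Fibroblast markers were low (11.1 to 14.3 CPM and 4.10 to 13.8 CPM, with Col1a1 at 1.43 ± 0.395 CPM with vehicle and 1.25 ± 0.846 CPM with papain), and 1 of 15 rose and 1 fell. Monocyte and macrophage markers rose in 2 of 16, C1qa (0.625 ± 0.192 to 2.96 ± 1.45 CPM) and C1qb (0.186 ± 0.0769 to 0.864 ± 0.597 CPM), and Fcgr3 fell from 3.71 ± 1.03 to 0.949 ± 0.516 CPM. Of the 16, 13 had a positive log2 fold change, and the median was 1.54 (0.91 with genes at the floor set to their bound). At an unadjusted p below 0.05 4 were higher and 1 lower, and by DESeq2 3 rose and 1 fell. The endothelial marker Plvap rose from 0.257 ± 0.154 to 2.67 ± 0.790 CPM and the smooth muscle marker Acta2 rose from 3.97 ± 1.73 to 14.7 ± 5.30 CPM, each the single rise of its list. T106 was the highest of the 8 libraries in the sums of Langerhans cell, dendritic epidermal T cell, red cell, monocyte and mast cell markers, at 724, 217, 17.2, 29.5 and 9.45 CPM. The part of these cells in the response was not tested. Mpeg1 did not pass when any of T108, T109, T110, T111, T106, T113, T100, T101, T102, T103 and T104 was left out (adjusted p up to 0.0332). Aqp5 did not pass without T114 (log2 fold change -1.85, adjusted p = 0.0111). Without T106 C1qb had a log2 fold change of 1.604.

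**Figure D4:**
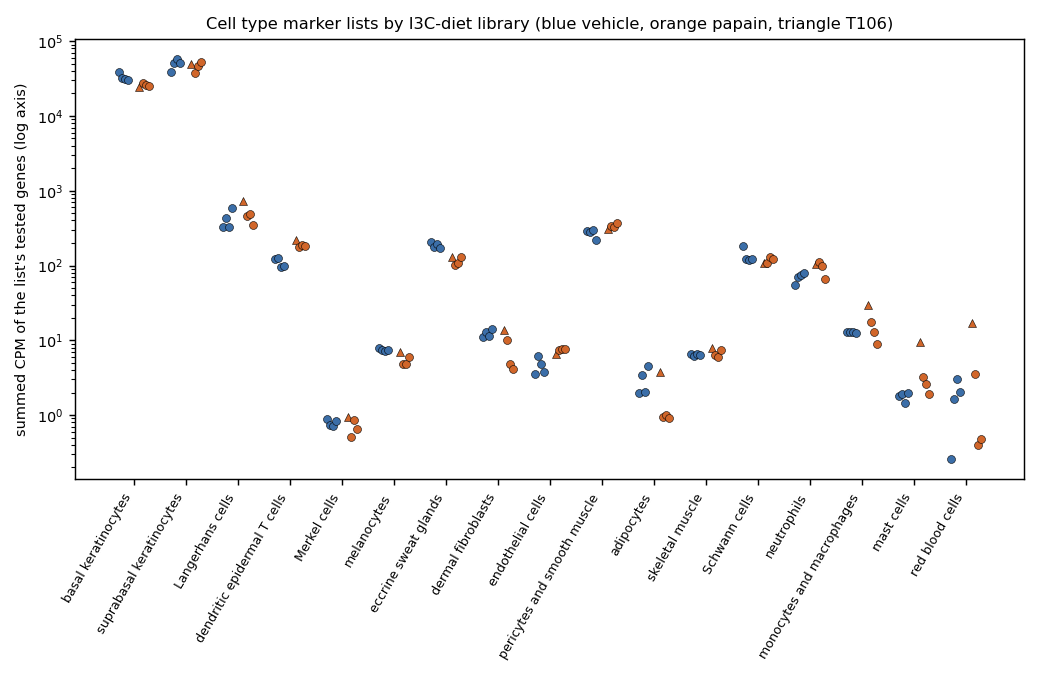
Summed CPM (log axis) of the tested genes of each cell type marker list in the 4 vehicle (blue) and 4 papain (orange) I3C-diet libraries, with T106 as a triangle. Keratinocyte sums lie at or above 24492 CPM in every library and fibroblast sums at or below 14.3 CPM.

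Called genes were also described by their position. Runs of at least 4 genes called in 1 direction, each start within 200 kb of the next called start, numbered 20 for rises and 20 for falls. Each run begins and ends at a called gene, so a high called share inside it follows in part from the definition. Whether called genes lie together more often than by chance was not tested. On chromosome 15, 6 of 11 genes tested between 101525026 and 101694307 rose, with Krt6a, Krt6b and Krt75. On chromosome 5, 5 of 8 between 120730333 and 120907521 rose, the Oas genes, and on chromosome 3, 4 of 4 between 142493978 and 142638008, the Gbp genes. The run on chromosome 15 between 74813452 and 75048830 held 5 rises of 9, with Ly6a (125 ± 19.7 to 437 ± 36.3 CPM) and Ly6c1 (34.3 ± 6.77 to 113.7 ± 6.97 CPM). A run on chromosome 18 held 17 rises of 36 genes tested, protocadherin β and γ genes, whose γ members share exons, so that their counts are not independent. The run of falls with the most genes, 11 of 28 between 95009879 and 95859174 on chromosome 11, held the homeobox genes Dlx3 and Dlx4 and the nerve growth factor receptor gene Ngfr (20.5 ± 4.51 to 7.19 ± 0.567 CPM). Antisense genes were 1.84% of rises, 5.39% of falls and 4.74% of all genes tested, and protein-coding genes were 86.2%, 81.8% and 72.9%.

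The response was set against that on the AhR-poor diet, where 1338 genes rose (6.04%) and 536 fell (2.42%) in the same fit. Of the 818 rises on the I3C diet, 522 rose on the AhR-poor diet too, 63.8% of the I3C list and 39.0% of the AhR-poor list. Of the 1171 falls, 444 fell on both diets, 37.9% and 82.8%. A call on 1 diet and not on the other does not show a difference, and the test of the difference itself, the interaction of diet and papain in edgeR, passed at an adjusted p below 0.05 for 73 genes, 0.329% of those tested. The 5 genes that fell on the I3C diet and rose on the AhR-poor diet were Dcn, Col6a2, Hmcn2, Cygb and Fcgr3, and all 5 passed it. Dcn, which encodes the matrix proteoglycan decorin, went from 33.8 to 161 CPM (log2 fold change 2.25) on the AhR-poor diet. Of the 722 falls on the I3C diet that were not called on the other, 19 passed it, and of the 296 rises 1 did. The interaction count was 529 by DESeq2. It rose to 391 without T106, 345 without T112 and 182 without T100, and it was 12 to 30 when any of T108, T111, T113, T114, T115, T101, T102, T103, T104, T105 and T107 was left out.

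Of the 73 genes, 69 had the lower response on the I3C diet and 4 the higher one. Efemp1, encoding the extracellular matrix protein fibulin-3, stood at 41.2, 34.1, 29.5 and 39.4 CPM with vehicle and 4.73, 3.88, 4.62 and 5.35 CPM with papain on the I3C diet (log2 fold change -2.95, SE 0.15, edgeR adjusted p = 1.04e-10), and on the AhR-poor diet its means went from 31.8 to 12.8 CPM (log2 fold change -1.31), interaction -1.65 on the log2 scale, SE 0.19, edgeR adjusted p = 0.00127. Sulf1, an enzyme gene that edits heparan sulfate, fell from 4.198 ± 1.39 to 0.595 ± 0.114 CPM on the I3C diet and went from 4.41 to 6.62 CPM (log2 fold change 0.59) on the AhR-poor diet, interaction -3.41 on the log2 scale, SE 0.41, edgeR adjusted p = 0.00127. Glul, the glutamine synthetase gene, stood at 243, 219.7, 195 and 243 CPM with vehicle and 52.8, 36.6, 35.4 and 35.6 CPM with papain on the I3C diet (log2 fold change -2.49, SE 0.14, edgeR adjusted p = 8.02e-10) and went from 165 to 76.1 CPM (log2 fold change -1.12) on the AhR-poor diet, interaction -1.37 on the log2 scale, SE 0.18, edgeR adjusted p = 0.00439. Col6a1 went from 66.9 to 40.6 CPM (log2 fold change -0.72) there (interaction -1.37 on the log2 scale, SE 0.20, edgeR adjusted p = 0.0102). Ltbp4, which encodes a relative of Ltbp1, fell from 274 ± 38.4 to 110.8 ± 3.93 CPM on the I3C diet and went from 274 to 197 CPM (log2 fold change -0.48) on the other (interaction -0.83 on the log2 scale, SE 0.13, edgeR adjusted p = 0.0128). Akap12 (0.731 ± 0.107 CPM with vehicle and 0.396 ± 0.0651 CPM with papain on the I3C diet), Medag (0.894 ± 0.402 CPM with vehicle and 0.638 ± 0.132 CPM with papain) and Aldh1a3 (1.29 ± 0.257 CPM with vehicle and 1.67 ± 0.700 CPM with papain) did not pass on the I3C diet, whereas Hmcn2 and Cygb fell from 1.01 ± 0.159 to 0.445 ± 0.120 CPM and from 1.03 ± 0.233 to 0.491 ± 0.0552 CPM. Of the 16 fits that each left out 1 library, Efemp1, Sulf1, Glul, Col6a1, Ltbp4, Akap12, Medag, Aldh1a3, Hmcn2 and Cygb passed the interaction test in all 16, Dcn in 14 (lost without T108 and T103), Fcgr3 in 11 (lost without T108, T114, T115, T102 and T103), Col6a2 in 7 (lost without T108, T111, T113, T114, T115, T101, T102, T103 and T104) and Col5a2 in 5 (lost without T108, T111, T113, T114, T115, T101, T102, T103, T104, T105 and T107). The interactions of Akap12, Medag, Aldh1a3, Hmcn2 and Cygb were -3.01, -2.75, -3.03, -2.42 and -2.47 on the log2 scale. Hmcn2 did not pass when any of T109, T113, T114 and T115 was left out (log2 fold change -1.06 to -1.15, adjusted p up to 0.0125). Cygb did not pass when any of T108, T110, T111, T106, T113, T114, T115, T101, T102, T104 and T107 was left out (log2 fold change -0.97 to -1.14, adjusted p up to 0.0277).

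The 4 genes with the higher response on the I3C diet were Parm1, Rab31, Nrp2 and Mtss1. Parm1, a mucin-like membrane protein gene, rose from 0.695 ± 0.168 to 14.4 ± 3.68 CPM (log2 fold change 4.37, SE 0.32, edgeR adjusted p = 1.83e-08) and went from 2.17 to 9.80 CPM (log2 fold change 2.18) on the AhR-poor diet, interaction 2.19 on the log2 scale, SE 0.41, edgeR adjusted p = 0.0336. Rab31, a vesicle transport GTPase gene, stood at 5.86, 5.25, 6.37 and 6.81 CPM with vehicle and 84.9, 149, 124 and 109.9 CPM with papain (log2 fold change 4.27, SE 0.16, edgeR adjusted p = 2.08e-11) and went from 8.18 to 78.7 CPM (log2 fold change 3.27) on the AhR-poor diet, interaction 1.002 on the log2 scale, SE 0.20, edgeR adjusted p = 0.0399. Nrp2 went from 16.3 to 33.4 CPM (log2 fold change 1.04) there (interaction 1.16 on the log2 scale, SE 0.24, edgeR adjusted p = 0.0493), and Mtss1, which encodes a membrane-bending protein, rose from 55.4 ± 3.09 to 154 ± 26.0 CPM on the I3C diet and went from 61.6 to 96.7 CPM (log2 fold change 0.65) there (interaction 0.82 on the log2 scale, SE 0.15, edgeR adjusted p = 0.0287). These 4 calls were less firm. With each of the 16 libraries left out in turn, the call held for Parm1 in 6 (lost without T108, T109, T111, T113, T114, T115, T102, T104, T105 and T107), Mtss1 in 5 (lost without T108, T111, T113, T114, T115, T101, T102, T103, T104, T105 and T107), Rab31 in 4 (lost without T108, T109, T110, T111, T113, T114, T115, T101, T102, T103, T104 and T105) and Nrp2 in 3 (lost without T108, T109, T110, T111, T113, T114, T115, T101, T102, T103, T104, T105 and T107). Marker lists were counted on both diets. Of 15 dermal fibroblast markers, 15 rose after papain on the AhR-poor diet and 1 on the I3C diet, and 1, Dcn, passed the interaction test (10 at an unadjusted p below 0.05 and 6 by DESeq2). Of 16 monocyte and macrophage markers, 13 and 2 rose, and 1, Fcgr3, passed it (5 at an unadjusted p below 0.05 and 3 by DESeq2). Of 15 neutrophil markers, 11 and 4 rose, and 0 passed it (1 at an unadjusted p below 0.05 and 1 by DESeq2). The part of these cells in the 73 genes was not tested. Among the lists described above, 4 of 4 stress keratins, 8 of 10 Stefin A genes, 29 of 33 interferon-stimulated genes and 7 of 23 S100 and antimicrobial genes rose on the AhR-poor diet, against 4, 7, 19 and 8 on the I3C diet. By edgeR's interaction test 0, 0, 0 and 0 of them passed (1, 1, 8 and 3 at an unadjusted p below 0.05, and 0, 1, 3 and 0 by DESeq2). Other lists differed more in their counts. On the AhR-poor diet 6 of 6 CXC and 15 of 21 other chemokine list genes rose, against 1 and 2 on the I3C diet. Of 26 matrix protease and 24 dermal matrix genes 14 and 12 rose there, against 5 and 1. The interaction test of edgeR passed for 0, 1, 1 and 5 of these. At an unadjusted p below 0.05 the counts were 4, 8, 17 and 13, and by DESeq2 4, 5, 9 and 10. Over all 22155 genes tested, the interaction count was 2987 at an unadjusted p below 0.05 and 529 by DESeq2. The list and marker counts should be read against these totals.

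**Figure D5:**
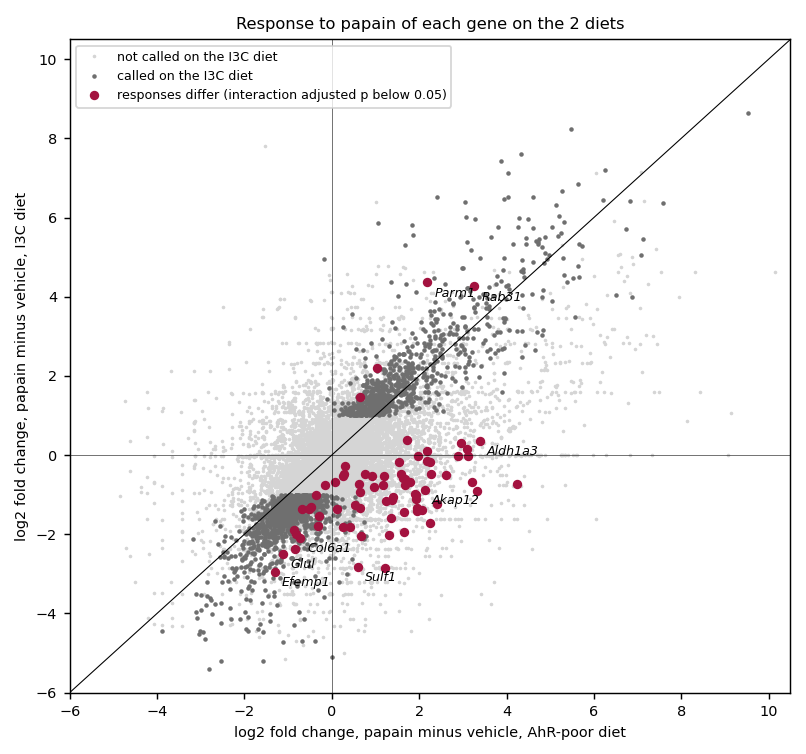
Log2 fold change of papain over vehicle on the AhR-poor diet (horizontal) and on the I3C diet (vertical) for each gene, with the line of equal response. Dark points were called on the I3C diet and red points are the 73 genes whose responses differed by the interaction test. Most red points lie below the line, at 69 of 73, and Parm1 and Rab31 lie above it.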

How the data were processed

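RNA of footpad epidermal cells from C57/B6J mice was measured by RNA sequencing in 16 libraries, 4 for each pair of diet and injection. Per the labels and the study's methods, the authors made TruSeq stranded mRNA libraries, read them as paired 100-nt reads on an Illumina NovaSeq in 3 sequencing units, aligned them with STAR to mm10 and deposited raw counts per gene, not normalized. The strand setting of the counting and the annotation used for it are not given in the sources used here. Symbols and positions came from GENCODE M21 (22093 of 22155 tested identifiers matched) and promoters from RefSeq on GRCm38.p6.

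The deposited counts were analysed with edgeR 4.0.16 in R 4.3.3. Genes with at least 10 counts over the 16 libraries were kept, library sizes were scaled by TMM, and 1 quasi-likelihood fit over the 4 groups gave papain minus vehicle on each diet and their interaction. The totals of the 8 I3C libraries ranged over 32213808 to 42848017 counts. A p measures the spread between libraries that the study calls biological replicates. That spread was estimated over all 4 groups, the AhR-poor ones included, with information shared across genes. An exact permutation test of 4 against 4 libraries cannot give a p under 0.0286. DESeq2 1.42.0, other scalings and filters, the I3C libraries alone and the loss of each library were tried as alternatives. The fit was also run on simulated counts, whose outcome is not given here and is not used as support for any call.

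The genes named were the 12 largest rises and falls among called genes of at least 1 CPM whose groups did not overlap, the 6 largest gains and losses in CPM, up to 4 called members of each of 47 gene lists and every member tested of lists of 12 genes or fewer, the genes that the study names for its papain response, the first 10 genes of the interaction test and the defining markers of 17 cell types. Some of these are given only as counts, and Krt14, Lor, Flg, Ivl, Egfr, Fos, Egr1, Jun, Mki67 and others needed to describe a list were added after their values were seen. The members and lists were chosen with earlier results of these data known. Lists were described by counts and medians, with no test of a list. A result that the naming rule would give is not reported here.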

Additional observations from a re-analysis of the deposited data

Results flagged for a closer look

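In 40 of 451 groups of 4 libraries (8.87%), 1 library of the I3C diet stood apart from the other 3 by a gap that took most of the group's range. Groups whose levels stayed under 0.2 CPM were not looked at. The rule gives about 1 in 20 by chance for normally distributed values. CPM were not transformed and many genes were named for their values, so the share found cannot be compared with that rate. T108, a vehicle library, held 18 of them, T106, a papain library, 8, and the other 6 I3C libraries 14. T108 was the highest vehicle library for Nr4a1 (2734 CPM), Dsc2 (12.6 CPM), Itga5 (22.7 CPM), Tgfa (22.97 CPM), Epgn (78.2 CPM), Myc (602 CPM), F2rl1 (162 CPM), Clcf1 (47.1 CPM), Areg (16.5 CPM), Vegfa (79.3 CPM), Akap12 (0.890 CPM), Tiparp (265 CPM), Fos (7703 CPM), Egr1 (5721 CPM), Jun (5032 CPM) and Hbegf (359 CPM). T108 was the lowest vehicle library for Bco1 (3.45 CPM) and Ccl28 (0.833 CPM). T106 was the highest papain library for Slfn4 (22.2 CPM), Csgalnact1 (1.92 CPM), Glul (52.8 CPM), Mpeg1 (2.12 CPM) and Ereg (25.4 CPM). T106 was the lowest papain library for Fabp5 (1564 CPM), Slc7a11 (26.3 CPM) and Egfr (181 CPM). T113 was the highest papain library for Klk9 (24.6 CPM), Mmp13 (109.9 CPM), Inhba (4.94 CPM), Nrp2 (49.3 CPM) and Mmp3 (63.2 CPM). T111 was the highest vehicle library for Ctsz (5.04 CPM), Pgk1 (141 CPM), Stra6 (6.15 CPM) and Oas3 (0.390 CPM). T109 was the highest vehicle library for Serpina3n (0.918 CPM). T109 was the lowest vehicle library for Tnip3 (0.0765 CPM). T110 was the highest vehicle library for Antxrl (0.218 CPM). T114 was the lowest papain library for Ccl20 (24.1 CPM). T115 was the lowest papain library for Ccr7 (1.77 CPM).

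The papain responses of 18 genes named in the report differed between the I3C and the AhR-poor diet by the interaction test (edgeR, adjusted p below 0.05). On the log2 scale, I3C minus AhR-poor, the difference was -3.98 for Dcn, -3.60 for Fcgr3, -3.41 for Sulf1, -3.03 for Aldh1a3, -3.01 for Akap12, -2.94 for Col6a2, -2.75 for Medag, -2.47 for Cygb, -2.42 for Hmcn2, -2.07 for Col5a2, -1.65 for Efemp1, -1.37 for Col6a1, -1.37 for Glul and -0.83 for Ltbp4. It was 2.19 for Parm1, 1.16 for Nrp2, 1.002 for Rab31 and 0.82 for Mtss1. Diet and cage cannot be told apart in these differences.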

How the results depend on the processing

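By edgeR 818 genes rose and 1171 fell. With RLE size factors the counts were 841 and 1141, with library size alone 752 and 1272, with the filterByExpr filter 802 and 1136, with at least 10 counts in every library 562 and 836 (13146 genes tested), with every gene of at least 1 count 813 and 1114, by DESeq2 910 and 1196, with the 8 I3C libraries alone 785 and 999, and at an adjusted p below 0.05 they were 1033 and 1552. Without a minimum fold change, 2821 rose and 2864 fell. With 1 library left out, they ranged over 750 to 851 and 957 to 1320. Falls were 55.2 to 62.8% of calls under the settings that kept the minimum fold change and 50.4% without one (58.9% as reported), and the median of all genes stayed within -0.08 to 0. The count of genes whose response differed between the diets was 73, 529 by DESeq2, 4 at an adjusted p below 0.01, 2987 at an unadjusted p below 0.05, and 12 to 391 with 1 library left out. The cause of these differences was not tested.

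Of 209 called genes named, 14 failed under at least 1 other tool, scaling, filter or choice of libraries and 35 with a library left out, and none reversed under those settings. Of 26 named genes that did not pass, 3 passed under an alternative. Of 1081 list medians under alternatives, 22 took the other sign, in 8 lists. No paired analysis was possible because the groups share no replicate numbers in the labels. A level under 3 counts per library was not distinguished from 0 at this depth, and the sequencing unit of each library was not analysed here.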

Other observations

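The Notch pathway, which directs keratinocytes from the basal layer into differentiation, had 0 calls of 14 by edgeR (3 higher and 5 lower at an unadjusted p below 0.05, and 0 higher and 0 lower by DESeq2), with a median log2 fold change of -0.12. By the same tests suprabasal keratinocyte markers had 0 calls of 10 (1 higher and 1 lower unadjusted, 0 and 0 by DESeq2). Among cell types that could enter the suspension, Merkel cell markers had 0 calls of 7 (0 higher and 0 lower unadjusted, 0 and 0 by DESeq2), melanocyte markers had 0 calls of 7 (0 higher and 2 lower unadjusted, 0 and 0 by DESeq2), mast cell markers had 0 calls of 9 (1 higher and 0 lower unadjusted, 1 and 0 by DESeq2), adipocyte markers had 0 calls of 6 (0 higher and 1 lower unadjusted, 0 and 0 by DESeq2), skeletal muscle markers had 0 calls of 8 (1 higher and 0 lower unadjusted, 0 and 0 by DESeq2) and red cell markers had 0 calls of 5 (0 higher and 0 lower unadjusted, 0 and 0 by DESeq2). Schwann cell markers had 1 fall of 8, that of Ngfr. A call that did not pass does not show that these cells were unchanged.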
